A study of Homo sapiens with 6 samples.

Results

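The genes described here are those that move zinc across membranes or bind it in the cytosol. They were taken from the deposited table by symbol: the zinc exporters of the SLC30A family (10 genes), the zinc importers of the SLC39A family (13 genes), the metallothioneins MT1 followed by a single letter, MT2A and MT3 (8 genes), and the transcription factor MTF1. Together they are 32 of the 17758 genes in the table. The rule uses symbols alone, though the gene group was picked with earlier results of these data known. RNA was sequenced from T47D, an oestrogen receptor-positive human breast ductal carcinoma cell line, in 6 libraries. In 3 libraries (shNC) the cells stably carried a lentiviral non-targeting short hairpin RNA, and in the other 3 (shCUEDC1) a lentiviral short hairpin RNA against CUEDC1, the gene of a CUE-domain protein. Below, "controls" are the shNC and "knockdown" the shCUEDC1 libraries. All cells were grown in the same serum-containing medium, and the growth protocol names no added metal. The number of hairpins is not given in the sources used here, so effects of a hairpin beyond CUEDC1 cannot be told apart from the loss of CUEDC1. The series calls the libraries biological replicates without saying whether they came from separate infections, and p-values therefore measure the spread between these libraries.

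SLC30A proteins (ZnT) lower cytosolic zinc by moving it out of the cell or into organelles, and SLC39A proteins (ZIP) raise it by moving zinc in from outside or out of organelles. Metallothioneins are small cysteine-rich proteins that bind zinc and copper. When free zinc rises, the zinc-finger factor MTF1 binds short metal response elements and induces metallothionein genes and SLC30A1, so the RNA of these genes is widely used as a readout of cytosolic zinc.

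The libraries held between 18924327 and 19731609 estimated reads. CUEDC1 was at 110, 109 and 93.3 CPM in control libraries 1, 2 and 3 and at 31.4, 33.8 and 32.0 CPM in knockdown libraries 1, 2 and 3, where CPM is the count scaled to library size after TMM normalisation. CUEDC1 fell by 1.68 on the log2 scale (adjusted p = 9.27e-06 by edgeR). The library shNC 3 stood apart: over genes of at least 10 CPM the SD of its log2 difference was 0.246 from shNC 1 and 0.266 from shNC 2, against 0.109 between those 2, and its values are given beside the results they touch. The 9 luminal epithelial markers summed to between 8541 CPM (shNC 3) and 10720 CPM (shCUEDC1 2) and none was at 0. The summed level of the 4 basal, 3 leukocyte and 5 stromal and endothelial markers lay between 13.3 and 22.2, between 3.65 and 4.61 and between 3.07 and 5.34 CPM, respectively. Their part in the results was not tested. The T-cell marker CD3E was at 0 in 5 of the 6 libraries. In bulk RNA, fewer cells expressing a gene and less RNA per cell cannot be told apart.

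Of the 32 genes, 23 passed the filter on low counts and were tested with edgeR over 13824 genes. A gene was called changed at a Benjamini-Hochberg adjusted p below 0.05. MT1M passed the filter only through the controls, so it could enter only by being lower after knockdown, and it is left out of the counts in the next sentences. Of the other 22 genes 7 fell and 1 rose, beside 9.96% of all tested genes called in either direction, 4.77% lower and 5.19% higher. The falls comprised 3 metallothioneins (MT2A, MT1X and MT1F), 2 exporters (SLC30A7 and SLC30A9) and 2 importers (SLC39A6 and SLC39A11), and the rise was in the importer SLC39A8. The median log2 change of the 22 was -0.11, against -0.004 over all tested genes. For 11 of the 22 every control library lay on one side of every knockdown library, which was so for 31.3% of all tested genes. Over all 23 genes, MT1M included, there were 12 falls and 1 rise without shNC 3 (28.1% of all genes called, 13.8% lower and 14.3% higher). MT1M was 1 of these 12 falls, so this count cannot be set directly against that of the 22 genes. Without shCUEDC1 2 there were 0 falls and 1 rise by edgeR (3.34% called, 1.4% lower and 1.94% higher). In that fit 9 genes were lower at an unadjusted edgeR p below 0.05. The share of all genes at that unadjusted threshold was not counted, so nothing is read from this number.

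The upstream sequences of MT2A, MT1X and SLC30A1 are shown because these are textbook MTF1 targets with very different counts of the motif that MTF1 reads. They are the 250 bases before the RefSeq start site (GRCh38.p14), written 5′ to 3′ on the strand of the gene: chr16:56608334-56608583, plus strand, for MT2A, chr16:56682220-56682469, plus strand, for MT1X and chr1:211579162-211579411, minus strand, for SLC30A1. Capitals mark the core of the metal response element, searched as TGCACNC and TGCGCNC on both strands, so that a match on the opposite strand appears as its reverse complement.
MT2A: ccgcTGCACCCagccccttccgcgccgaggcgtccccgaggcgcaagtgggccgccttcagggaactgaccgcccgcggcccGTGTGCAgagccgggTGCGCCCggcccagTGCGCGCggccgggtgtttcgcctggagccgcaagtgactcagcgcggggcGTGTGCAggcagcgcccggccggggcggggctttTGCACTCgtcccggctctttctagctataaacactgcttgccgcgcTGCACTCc
MT1X: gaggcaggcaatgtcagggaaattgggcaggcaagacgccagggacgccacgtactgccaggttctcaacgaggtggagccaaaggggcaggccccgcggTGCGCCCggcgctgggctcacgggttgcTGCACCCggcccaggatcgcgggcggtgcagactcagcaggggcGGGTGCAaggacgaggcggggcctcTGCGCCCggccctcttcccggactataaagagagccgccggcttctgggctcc
SLC30A1: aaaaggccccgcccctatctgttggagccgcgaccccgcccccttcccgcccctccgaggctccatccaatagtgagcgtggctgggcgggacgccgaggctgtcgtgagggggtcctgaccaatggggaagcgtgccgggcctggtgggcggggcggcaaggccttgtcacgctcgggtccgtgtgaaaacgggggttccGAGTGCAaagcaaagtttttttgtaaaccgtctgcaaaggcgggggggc
The MT2A window held 7 matches, 5 on the strand of the gene, and the MT1X window held 4, of which 3 were on that strand. The SLC30A1 window held 1. Of all 35116 RefSeq windows of this length, 24.8% held at least 1 match, 0.37% at least 4 and 0.031% at least 7. In the windows shown, no 2 matches overlapped. A match is a description of the letters and not a binding site shown by these data. The set of RefSeq start sites used here covered 23 of the 32 genes. Of their 32 start sites 19 held no match and 9 held 1. MT1A, MT1E, MT1F, MT1G, MT1M, MT3, SLC30A8, SLC39A4 and SLC39A14 had no entry in that set, whether or not RefSeq lists them elsewhere. In GENCODE v29 the gene start lies 385 bases upstream of the RefSeq start for MT2A, 46 bases upstream for MT1X and 419 bases downstream for SLC30A1, so other windows would hold other matches.

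**Figure D1:**
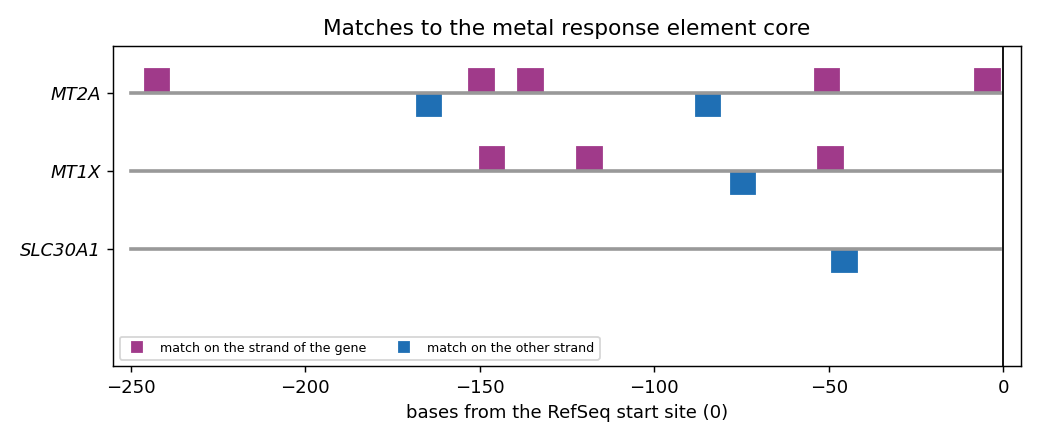
Position of matches to the metal response element core in the 250 bases upstream of the RefSeq start sites of MT2A, MT1X and SLC30A1. The x axis gives bases from the start site, and blocks above or below each line are matches on the strand of the gene or on the other strand. MT2A holds 7 blocks, MT1X 4 and SLC30A1 1.

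The metallothionein genes lie side by side on chromosome 16 (GRCh38), and the 3 that passed the filter in both groups (MT2A, MT1X and MT1F) fell in shCUEDC1. Of all tested genes 4.77% were called lower. MT2A (Entrez 4502, chromosome 16 from 56608199 to 56609497, plus strand) is the most abundant human metallothionein in most cells. MT2A stood at 72.8, 76.1 and 76.5 CPM in control libraries 1, 2 and 3 and 52.2, 61.3 and 65.3 CPM in knockdown libraries 1, 2 and 3. The lowest shNC library lay above the highest shCUEDC1 library, and shCUEDC1 1 was the lowest of all. MT2A fell by 0.33 on the log2 scale (adjusted p = 0.0274 by edgeR, 95% interval -0.51 to -0.16), which is a percent change of -20.7%.

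MT1X (Entrez 4501, chromosome 16 from 56682424 to 56684196, plus strand) is an inducible copy of the MT1 group. It was at 16.5, 16.03 and 21.5 CPM in control libraries 1, 2 and 3 and at 11.0, 12.1 and 12.5 CPM in knockdown libraries 1, 2 and 3. The groups did not overlap, and shNC 3 was the highest library. MT1X fell by 0.60 (adjusted p = 0.0160 by edgeR, 95% interval -0.88 to -0.32).

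MT1F (Entrez 4494, chromosome 16 from 56657694 to 56660698, plus strand) was at 5.37, 4.03 and 7.71 CPM in the controls and at 2.86, 2.51 and 3.42 CPM after knockdown. It fell by 0.96 (adjusted p = 0.0356 by edgeR, 95% interval -1.504 to -0.414), with the widest spread among the controls, relative to its mean, of the 4 genes. MT1M (Entrez 4499, chromosome 16 from 56632233 to 56633986, plus strand) was the least abundant, at 0.861, 0.958 and 1.10 CPM in the controls and 0.459, 0.358 and 0.415 CPM after knockdown. These levels rest on 17.3, 18.8 and 21.3 estimated reads in shNC and 9.20, 6.94 and 8.16 in shCUEDC1. MT1M fell by 1.23 (adjusted p = 0.0351 by edgeR, 95% interval -1.93 to -0.53). It passed the low-count filter only through the shNC libraries, so its value is given as a description and does not add to the count of the other 3.

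The 7 metallothioneins with a coding sequence of 186 bases are between 88.7% and 95.2% identical over it (GENCODE v29, 21 pairs), and the authors' counting may have moved reads between them. Within the longest GENCODE v29 transcript that holds the full coding sequence, 14.7% of the 50-base windows of MT1X also occur in another of the 8 metallothioneins, against 3.59% for MT1F, 2.17% for MT2A and 1.92% for MT1M. These shares set no limit on the error of a single copy: reads of an abundant copy can weigh on a scarce one, and the transcripts of MT1F, MT2A and MT1M used here (690, 786 and 829 bases) are longer than the lengths the deposited values imply (376, 352 and 349 bases). The levels of single copies, MT1M above all, are therefore uncertain. The summed level of all 8 does not depend on how reads were split among these 8. Reads that the counting dropped or gave to genes outside the 8 would still change it. This summed level was 95.6, 97.2 and 107 CPM in control libraries 1, 2 and 3 and 66.5, 76.3 and 81.7 CPM in knockdown libraries 1, 2 and 3. The sum was thus lower in every shCUEDC1 library than in any shNC library, by 25.1% on average, and MT2A made up between 71.6% and 80.4% of it. As a description, the log2 ratio of the summed levels was -0.42 with all libraries and -0.37 without shNC 3.

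Within shNC, the library shNC 3 exceeded the mean of shNC 1 and 2 by 0.71 for MT1F, 0.40 for MT1X and 0.28 for MT1M on the log2 scale, but by 0.04 for MT2A. Without shNC 3 the calls of MT1F, MT1X and MT2A were kept, with log2 changes of -0.68, -0.45 and -0.32 (edgeR adjusted p = 0.00531, 5.19e-04 and 0.00836, respectively), in a fit that called 28.1% of all genes. MT1M was at -1.13 there (edgeR adjusted p = 0.0386). The calls were lost more easily when other libraries were left out. MT1X lost its call without any 1 shCUEDC1 library (highest edgeR adjusted p = 0.0897, without shCUEDC1 1), and MT2A without shNC 1, shNC 2, shCUEDC1 1 or shCUEDC1 2 (highest edgeR adjusted p = 0.0991, without shCUEDC1 2). MT1F lost its call without shNC 1 or any 1 shCUEDC1 library and by limma-voom, and MT1M without any 1 library other than shNC 3, by DESeq2, with no filter on low counts and with the replicate number as a block. Their highest edgeR adjusted p was 0.157 and 0.151, both without shCUEDC1 2. All 4 kept their direction in every fit that tested them, MT1M being left out by the filter of 1 CPM.

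The other 4 metallothioneins were not tested. MT1A, MT1E and MT1G had reads in 1 shNC library each, with at most 2.00 estimated reads, and MT3, the neuronal form, had at most 1.00. With so few reads no difference was detectable at this depth.

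**Figure D2:**
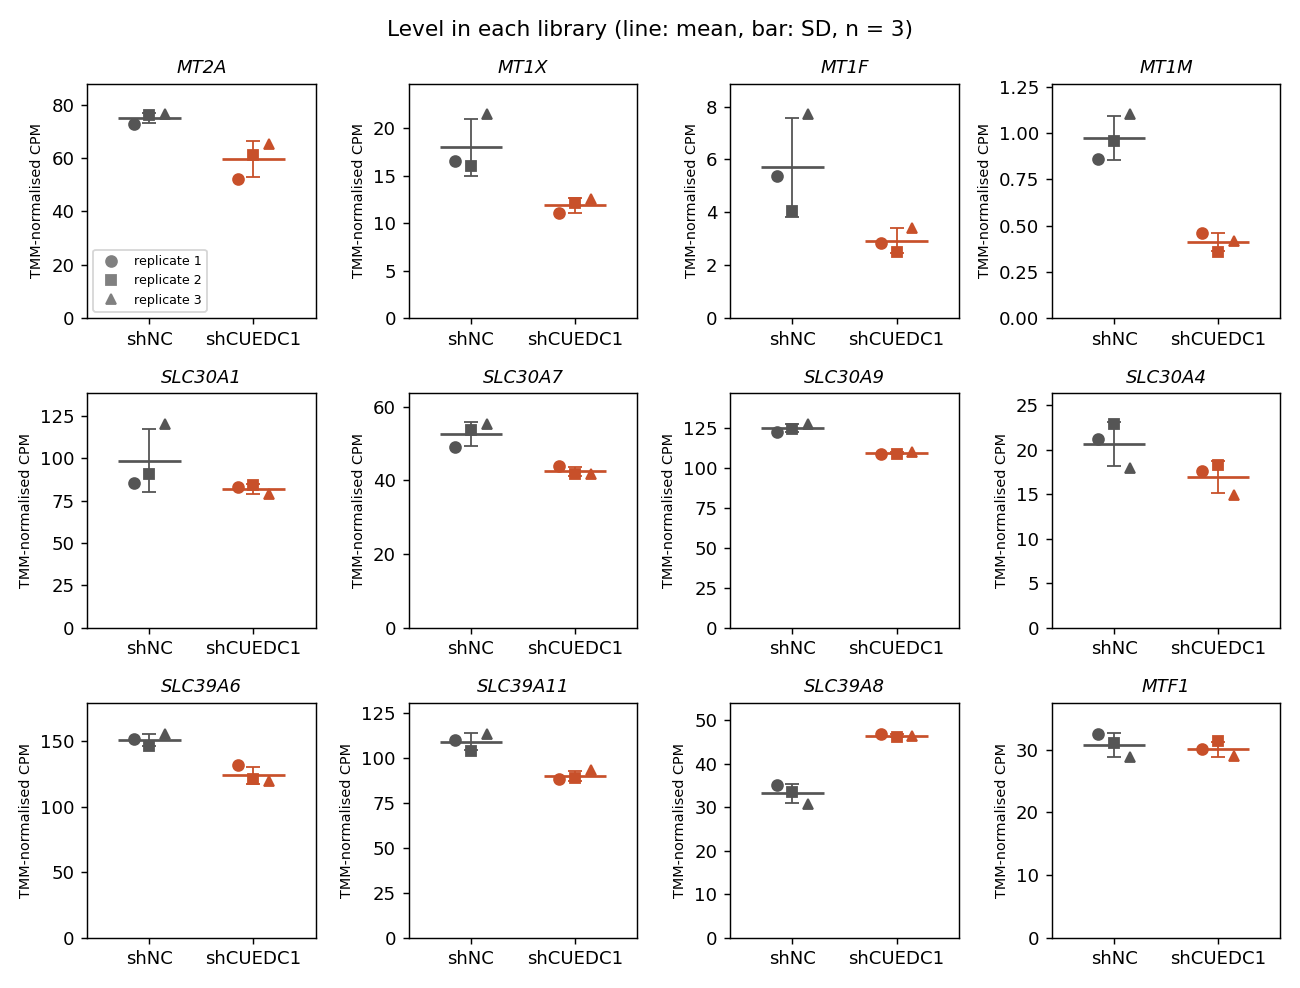
Level of 12 of the genes in each library. The y axes give TMM-normalised CPM from 0, points are libraries with a shape for each replicate number, lines are group means and bars the SD of 3 libraries. For MT2A the shNC libraries sit between 72.8 and 76.5 CPM, above the shCUEDC1 libraries at 52.2 to 65.3, and for SLC39A8 the order of the groups is the opposite.

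MTF1 itself and its other classical target, SLC30A1, were not called. MTF1 (Entrez 4520) was at 32.5, 31.0 and 28.8 CPM in the controls and 30.0, 31.3 and 28.9 CPM after knockdown, so the groups overlapped. Its log2 difference was -0.03 (adjusted p = 0.828 by edgeR, 95% interval -0.19 to 0.13), and -0.08 without shNC 3. SLC30A1 (ZnT1, Entrez 7779, chromosome 1 from 211571568 to 211578742, minus strand) is the main zinc exporter of the plasma membrane. It was at 85.5, 90.5 and 120 CPM in control libraries 1, 2 and 3 and at 83.3, 84.1 and 78.9 CPM in knockdown libraries 1, 2 and 3. The groups did not overlap, but shNC 3 lay 0.45 above the mean of shNC 1 and 2 on the log2 scale. The log2 difference of SLC30A1 was -0.27 with all libraries (SE 0.117, edgeR adjusted p = 0.200) and -0.10 without shNC 3 (edgeR adjusted p = 0.137).

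Among the exporters 2 of the 6 tested fell and none rose, beside 4.77% of all tested genes called lower and 5.19% higher. All 6 had a negative log2 difference, while the median over all tested genes was -0.004. The share of all genes with a negative difference was not counted, and with so few genes these counts are descriptions. SLC30A7 (ZnT7, Entrez 148867, chromosome 1 from 100896076 to 100981753, plus strand) loads zinc into the early secretory pathway. It was at 49.0, 53.7 and 55.2 CPM in the controls and at 43.8, 41.7 and 41.6 CPM after knockdown, without overlap. SLC30A7 fell by 0.31 (adjusted p = 0.0162 by edgeR, 95% interval -0.46 to -0.17). SLC30A9 (ZnT9, Entrez 10463, chromosome 4 from 41990472 to 42090457, plus strand) is the zinc exporter of mitochondria. Its libraries were tightly grouped, at 123, 124 and 127 CPM in the controls and 109, 109 and 110 CPM after knockdown. SLC30A9 fell by 0.19 (adjusted p = 0.0274 by edgeR, 95% interval -0.29 to -0.09), a small change that exceeded the spread of either group.

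SLC30A5 and SLC30A6, which work as a heterodimer in the secretory pathway, were at 118 ± 3.34 and 57.5 ± 3.37 CPM in the controls and at 109 ± 3.11 and 53.8 ± 1.36 CPM after knockdown (SD, n = 3 each). Their log2 differences were -0.11 and -0.10 (edgeR adjusted p = 0.204 and 0.377), and that of SLC30A6 was -0.04 without shNC 3. SLC30A4, an endosomal transporter that also moves zinc into milk, was at 21.2, 22.9 and 18.0 CPM in the controls and 17.6, 18.3 and 14.9 CPM after knockdown, with overlap. Its log2 difference was -0.29 (edgeR adjusted p = 0.145). Without shNC 3 both SLC30A4 and SLC30A5 were called lower, by 0.38 and 0.13 (edgeR adjusted p = 0.00172 and 0.0293). Calls of SLC30A7 were lost without any 1 shCUEDC1 library (highest edgeR adjusted p = 0.0956, without shCUEDC1 2) and on the FPKM scale. SLC30A9 lost its call without any 1 library other than shNC 3 (highest edgeR adjusted p = 0.137, without shCUEDC1 2), on the FPKM scale and with the replicate number as a block. The exporters SLC30A2, SLC30A3, SLC30A8 and SLC30A10, which are best known from mammary gland, brain, pancreatic islets and liver, were not tested, with at most 11.3, 8.96, 1.08 and 11.3 estimated reads in a library.

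Among the importers 1 of the 12 tested rose and 2 fell, beside 5.19% of all tested genes called higher and 4.77% lower. These small counts, too, are descriptions. SLC39A8 (ZIP8, Entrez 64116, chromosome 4 from 102251041 to 102431258, minus strand) carries manganese, iron and cadmium as well as zinc. It was at 35.0, 33.5 and 30.8 CPM in control libraries 1, 2 and 3 and at 46.8, 46.0 and 46.3 CPM in knockdown libraries 1, 2 and 3. The shCUEDC1 libraries were all above the shNC libraries and nearly equal to each other. SLC39A8 rose by 0.49 on the log2 scale (adjusted p = 0.00211 by edgeR, 95% interval 0.34 to 0.63), which is a rise of 40.0%. Among the 9 called genes it alone stayed called in every one of the 14 fits, with a log2 change between 0.44 and 0.53 when 1 library was left out. SLC39A14 (ZIP14), its closest relative and also a carrier of manganese and iron, was at 55.4, 55.1 and 50.5 CPM in the controls and 48.2, 49.3 and 51.8 CPM after knockdown. Its log2 difference was -0.11 with all libraries (adjusted p = 0.316 by edgeR, 95% interval -0.25 to 0.03), and without shNC 3 it was called lower by 0.15 (edgeR adjusted p = 0.0417).

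SLC39A6 (ZIP6 or LIV-1, Entrez 25800, chromosome 18 from 36108532 to 36129385, minus strand) is a plasma membrane importer long known as an oestrogen-induced gene of breast cancer cells. It was at 151, 146 and 155 CPM in the controls and 131, 121 and 119 CPM after knockdown, without overlap. SLC39A6 fell by 0.28 (adjusted p = 0.0101 by edgeR, 95% interval -0.40 to -0.16). The oestrogen receptor gene ESR1 was at 106.1, 102.2 and 128.4 CPM in control libraries 1, 2 and 3. In knockdown libraries 1, 2 and 3 it was at 129.0, 128.3 and 127.6 CPM, so the groups overlapped only through shNC 3. The log2 difference of ESR1 was 0.19 (edgeR adjusted p = 0.165), and any link to SLC39A6 was not tested. SLC39A10 (ZIP10), which forms a heteromer with SLC39A6, was at 21.5, 20.3 and 27.9 CPM in the controls and 21.9, 20.8 and 20.8 CPM after knockdown. Its groups overlapped, and its log2 difference was -0.13 with all libraries and 0.02 without shNC 3 (edgeR adjusted p = 0.535 and 0.856).

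SLC39A11 (ZIP11, Entrez 201266, chromosome 17 from 72645949 to 73092712, minus strand), a transporter of the Golgi and nucleus, was at 110, 104 and 113 CPM in the controls and 88.2, 89.0 and 93.3 CPM after knockdown. It fell by 0.28 (adjusted p = 0.0116 by edgeR, 95% interval -0.40 to -0.16), again without overlap. SLC39A6 lost its call without shCUEDC1 2 or shCUEDC1 3 (highest edgeR adjusted p = 0.0755), and SLC39A11 without shNC 1, shCUEDC1 1 or shCUEDC1 2 (highest edgeR adjusted p = 0.0794), in both cases with the highest value without shCUEDC1 2. Both were called by every other fit.

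The other importers were not called with all 6 libraries. SLC39A1 (ZIP1), the main importer of the plasma membrane, was at 308 ± 28.3 CPM in the controls and 330 ± 6.79 CPM after knockdown, and SLC39A7 (ZIP7), which releases zinc from the endoplasmic reticulum, at 267 ± 16.1 and 275 ± 2.69 CPM (SD, n = 3 each). Their log2 differences were 0.10 (95% interval -0.04 to 0.24) and 0.04 (95% interval -0.08 to 0.15), and that of SLC39A1 was 0.03 without shNC 3. SLC39A9 differed by -0.04, SLC39A3 by 0.03 and SLC39A4, the intestinal importer mutated in acrodermatitis enteropathica, by 0.14 (edgeR adjusted p = 0.741, 0.859 and 0.424). The differences of SLC39A3, SLC39A7 and SLC39A9 had the opposite sign without shNC 3. SLC39A13, a Golgi transporter, differed by -0.09 (edgeR adjusted p = 0.638) and was called lower without shNC 3, by 0.21 (edgeR adjusted p = 0.0128). SLC39A2 was at 0.732 ± 0.0916 CPM in the controls and 1.08 ± 0.191 CPM after knockdown (SD, n = 3 each). Its groups did not overlap, but its interval was wide (log2 difference 0.55, adjusted p = 0.264 by edgeR, 95% interval -0.08 to 1.19). SLC39A5 had at most 2.00 estimated reads in a library and was not tested.

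**Figure D3:**
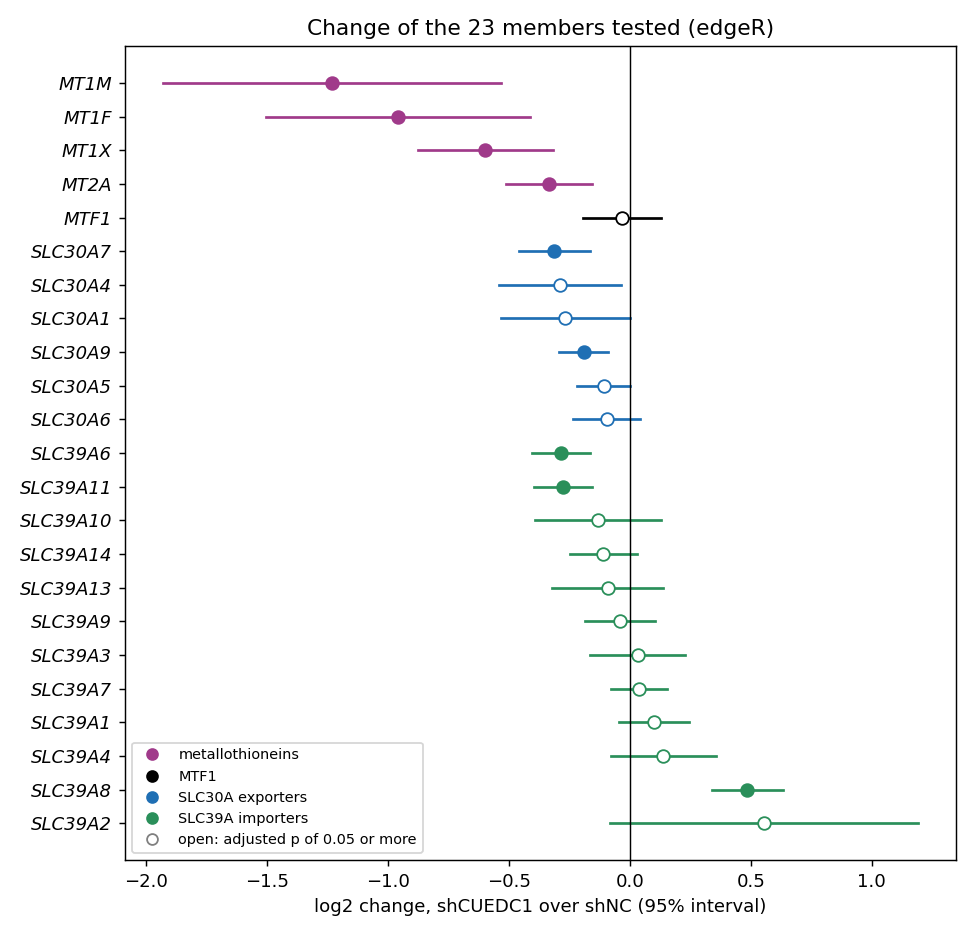
Log2 change of the 23 tested genes, shCUEDC1 over shNC, with 95% intervals (edgeR), coloured by class. Filled points have an adjusted p below 0.05. The 4 metallothioneins run from -1.23 to -0.33, the 6 exporters from -0.31 to -0.10, and the importers lie on both sides of 0, from -0.28 to 0.55.

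Levels of different genes were compared on the deposited FPKM scale, which divides by gene length. The order therefore depends on the lengths the deposited values imply, 352 bases for MT2A, 2015 for SLC39A1 and 2110 for SLC39A7. In CPM, without that division, MT2A lay below both in shNC (means of 75.1, 308 and 267 CPM, respectively). The values that follow are in FPKM. MT2A had the highest level, at 208, 217 and 219 FPKM in shNC and 147, 174 and 183 FPKM in shCUEDC1. SLC39A1 followed at 138 to 165 FPKM and SLC39A7 at 119 to 134 FPKM over the 6 libraries. In shNC the 3 genes kept this order in every library, whereas in shCUEDC1 1 the level of MT2A lay below that of SLC39A1 (147 against 160 FPKM). The next level was shared by MT1X, SLC39A9, SLC30A5, SLC39A6 and SLC39A11, whose group means lay between 33.2 and 51.0 FPKM. SLC30A5 and SLC30A9 were the most abundant exporters, with means of 43.7 and 26.0 FPKM in shNC. MTF1 was at 3.64 to 4.14 FPKM, MT1M had means of 2.83 and 1.18 FPKM, and SLC39A2 was the lowest tested gene at 0.553 and 0.810 FPKM.

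**Figure D4:**
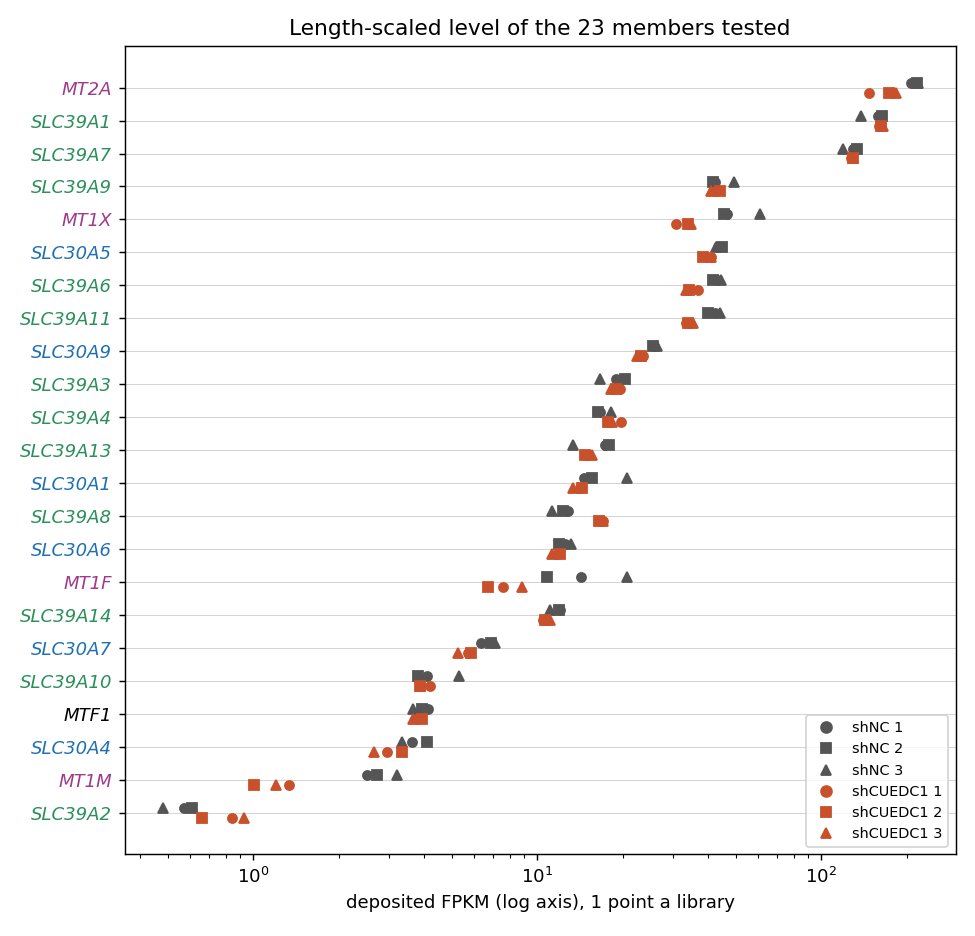
Deposited FPKM of the 23 tested genes in each library, on a log axis and ordered by the mean over all libraries. Grey points are shNC and orange points shCUEDC1 libraries, with a shape for each replicate number, and gene names are coloured by class (purple metallothioneins, blue exporters, green importers, black MTF1). MT2A, SLC39A1 and SLC39A7 stand above the rest, all over 100 FPKM.

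**Figure D5:**
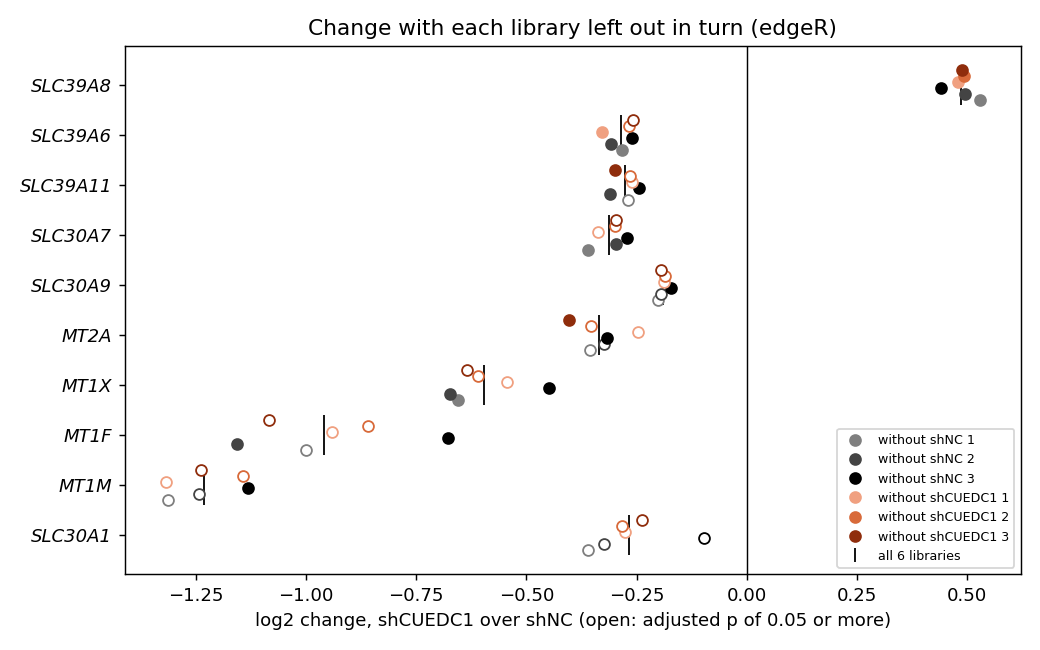
Log2 change of the 9 called genes and SLC30A1 with each library left out in turn (edgeR). Vertical bars are the values with all 6 libraries, and filled points have an adjusted p below 0.05. SLC39A8 is filled in all 6 fits, and the points without shNC 3 lie nearest to 0 for MT1X at -0.45, for MT1F at -0.68 and for SLC30A1 at -0.10.

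Other genes of metal handling were taken from 6 lists that share no gene with the 32, while SLC11A2 and HMOX1 are each in 2 of the lists. The lists are short and their counts are descriptions. They stand beside 9.96% of all tested genes called, 4.77% lower and 5.19% higher. The list of manganese handling was not in the original plan. In it 3 of 7 tested rose, 0 fell and 4 were not called (median log2 change 0.09). TMEM165, a Golgi manganese and proton exchanger, rose from 167 ± 2.80 to 201 ± 1.45 CPM (SD, n = 3 each, log2 change 0.26, edgeR adjusted p = 0.00465). ATP2C2, a manganese and calcium pump of the secretory pathway, rose by 0.41 and SLC11A2 (DMT1), a carrier of iron and manganese, by 0.24 (edgeR adjusted p = 0.0152 and 0.0113). Of the 2 importers described above as manganese carriers, SLC39A8 rose and SLC39A14 did not. The log2 difference of SLC39A14 was -0.11 (edgeR adjusted p = 0.316), and it was called lower without shNC 3. Leaving out shNC 1, or any 1 knockdown library, ended the calls of ATP2C2 (up to an edgeR adjusted p = 0.0891, without shCUEDC1 2) and SLC11A2 (up to 0.0676, without shCUEDC1 3).

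Iron handling had 1 rise and 2 falls among 23 tested (median -0.01), beside 9.96% of all tested genes called. SLC40A1 (ferroportin), the only known iron exporter of the cell and a reported MTF1 target, rose from 523 ± 4.96 to 807 ± 17.6 CPM (SD, n = 3 each), or 0.63 on the log2 scale with an SE of 0.0417 (adjusted p = 5.74e-05 by edgeR). It rose while the metallothioneins fell, and the cause of either change was not tested. SLC40A1 stayed called without any 1 library. ACO1, the iron-sensing aconitase IRP1, fell by 0.47 and LTF, the secreted iron-binding lactoferrin, by 0.79 (edgeR adjusted p = 0.00381 and 0.00584). Without shCUEDC1 3 the call of LTF was lost (adjusted p = 0.0504 by edgeR).

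Copper handling had 1 rise, STEAP4 by 0.40, and 1 fall, STEAP3 by 0.35, among 17 tested (edgeR adjusted p = 0.00669 and 0.0350, list median 0.04), both of them metalloreductases. All list counts in this paragraph stand beside 9.96% of all tested genes called and are not read as results about the lists. STEAP3 lost its call without any 1 library other than shNC 3 (highest edgeR adjusted p = 0.144, without shCUEDC1 2) and with the replicate number as a block. The list drawn up for zinc handling outside the 2 transporter families had 1 rise, SLC11A2, and 1 fall among 18 tested (median 0.04). It was drawn broadly and also held genes that do not carry zinc, such as MTF2, KCNK3 and CSNK2A1. The fall was in CA12, a zinc-dependent carbonic anhydrase, from 827 ± 64.2 to 687 ± 19.9 CPM (SD, n = 3 each, log2 change -0.27, edgeR adjusted p = 0.0210). It lost its call without any 1 library other than shNC 3 (highest edgeR adjusted p = 0.106, without shCUEDC1 3). Of the zinc enzymes that mature in the secretory pathway 0 rose and 1 of 12 tested fell (median -0.01): ACE by 0.74 (edgeR adjusted p = 0.0255), a call lost without shNC 1 or any 1 shCUEDC1 library (highest edgeR adjusted p = 0.123, without shCUEDC1 1) and on the FPKM scale.

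Metal and heat stress genes had 1 rise and 2 falls among 15 tested (median -0.04), beside 9.96% of all tested genes called. HSPB1, a small heat shock protein, rose from 826 ± 17.6 to 1065 ± 55.9 CPM (SD, n = 3 each, log2 change 0.37, edgeR adjusted p = 0.00215). GCLM, a subunit of the enzyme that starts glutathione synthesis, fell by 0.44 and the quinone reductase NQO1 by 0.32 (edgeR adjusted p = 0.00421 and 0.00599). Without shCUEDC1 2 the call of NQO1 was lost (adjusted p = 0.0510 by edgeR), while HSPB1 and GCLM stayed called without any 1 library.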

How the data were processed

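Poly(A)-selected RNA of 6 T47D libraries was sequenced, per the labels' protocols. GRCh38 (p13) is the build named in the submitters' processing notes. The sources used here do not give the aligner, the counter or whether strand was considered. Per the file headers, the authors deposited read counts, here fractional and so taken as estimated counts without normalisation, and FPKM, in which gene length and library depth are divided out.

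The estimated counts were rounded, filtered with filterByExpr (minimum count 10), TMM-normalised and compared with edgeR 4.0.16 (robust quasi-likelihood F test, R 4.3.3, Benjamini-Hochberg adjustment over all 13824 tested genes). Differences are shCUEDC1 minus shNC on the log2 scale. The exact permutation p for CUEDC1 was 0.1 (two-sided), the smallest that 3 against 3 libraries allow. The genes and lists were chosen with earlier results of these data known, and the manganese list was not in the original plan. Values are given in full for CUEDC1, called genes, genes whose call depends on 1 library or setting, the most abundant genes of each class, MTF1 and SLC30A1, and in lists for up to 4 called genes. Alternatives were RLE size factors, no low-count filter, a filter of 1 CPM in 3 libraries, DESeq2 1.42.0, limma-voom and limma-trend on log2(FPKM + 0.5) (limma 3.58.1), a block for replicate number, and leaving out 1 library at a time. A result on a further gene near the metallothioneins is not reported here. Gene positions are from GENCODE v29 on GRCh38 and upstream sequences from RefSeq on GRCh38.p14. On simulated counts of shCUEDC1 against shNC with 13696 genes tested, edgeR recovered 71% of 100 genes changed 1.5-fold and 97% of 100 changed 2-fold, and 8.70% of its 184 calls were unchanged genes. The simulation held no library that stood apart as shNC 3 did, so these rates may not hold for the real libraries. Every called transporter changed by less than 1.5-fold, SLC39A8 the most at 1.40-fold, and smaller folds were not simulated.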

Additional observations from a re-analysis of the deposited data

How the results depend on the processing

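All 9 called genes of zinc handling kept their direction in the 14 fits, including the one with all libraries, except that MT1M was not tested with the filter of 1 CPM. SLC39A8 was the 1 rise in each fit. The count of falls, MT1M included, was 8 with all libraries, or 7 when MT1M, which could enter only as a fall, is left out. Under the 7 alternatives that leave no library out the count was 6 to 8. It ranged from 0 (without shCUEDC1 2) to 12 (without shNC 3) when 1 library was left out, while the count over all genes went from 1377 to between 468 and 3925 in the same fits. In the fit with 0 falls, 9 of the 23 genes, MT1M included, were lower at an unadjusted edgeR p below 0.05. The share of all genes at that unadjusted threshold was not counted, so nothing is read from this number. DESeq2 with all libraries called 7 falls, given here without the share of all genes that it called. Signs reversed for 5 uncalled genes when 1 library was left out. MTF1 ranged from -0.075 to 0.0091 (positive without shNC 1), SLC39A10 from -0.22 to 0.024, SLC39A3 from -0.044 to 0.104, SLC39A7 from -0.0060 to 0.072 and SLC39A9 from -0.088 to 0.036, these 4 with the other sign without shNC 3. The cause was not tested. With the replicate number as a block, 6 of the 8 falls stayed called (MT1M and SLC30A9 did not, edgeR adjusted p = 0.0746 and 0.0591), and 1117 genes were called in all. Same-numbered libraries hardly deviated together (r = 0.004, 0.07 and 0.03 across genes), and not every library correlated best with its own number, so the numbers were not taken to pair the samples. The low counts of MT1M and of the 9 untested genes limit what could be detected there.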

Other observations

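Among the genes within 200 kb of the 8 metallothioneins on chromosome 16, NUDT21, BBS2 and NUP93 differed by -0.001, 0.005 and 0.01 on the log2 scale and OGFOD1 by -0.12 (edgeR adjusted p = 0.992, 0.971, 0.953 and 0.195). These genes were chosen after the metallothionein values had been seen.

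Metallothionein RNAs are very short, with lengths of 349 to 376 bases implied by the deposited counts and FPKM of the 4 tested genes. Of the 219 other tested genes with an implied length under 600 bases, 12 rose and 5 fell, and their median log2 change was 0.08. Their share called was 7.76%, beside 9.96% of all tested genes. Any part of RNA length in the metallothionein values was not tested. This set, too, was chosen after the metallothionein values had been seen.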
